A study of Mus musculus with 10 samples.

Results

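The genes Selenop, Trh, Crybb1, Trpm1, Socs2 and Sprr2a2 were followed over a week of reprogramming of mouse embryonic fibroblasts. They are 6 of the 54752 genes in the deposited tables and were picked by name for a strong rise from D1 to D3, so their values on those days describe the choice and test nothing. The fibroblasts, connective tissue cells taken at passage 2 from embryos of embryonic day 13.5, came from a cross of fathers on a CBA/CaJ × C57BL/6J background with 129S4/SvJaeJ mothers, and the fathers carried an Oct4-GFP transgene, a green reporter of the pluripotency gene Oct4. All cells were infected for 48 hours with retroviruses for Jdp2, Sall4, Esrrb and Glis1, which encode transcription factors, and were then kept in an induction medium called iCD3. Messenger RNA was sequenced after 0, 1, 3, 5 and 7 days in that medium (D0, D1, D3, D5 and D7), with 2 libraries a day, numbered replicate 1 and 2 and taken from 2 independent experiments, or 10 libraries in all. No library of uninfected cells or of another medium was analysed here, so the viral factors, the medium and time in culture cannot be told apart. D0 cells had already carried the viruses through the infection.

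The 6 genes come from unrelated families. Selenop encodes selenoprotein P, a secreted carrier that is rich in selenocysteine, is made mostly by the liver and delivers selenium to cells through the receptors Lrp8 and Lrp2. Trh encodes the precursor of thyrotropin-releasing hormone, a short peptide that hypothalamic neurons cut from the precursor and amidate, and that acts through the receptors Trhr and Trhr2. Crybb1 encodes a beta crystallin, a structural protein of the eye lens, and in the mouse it is also known from microglia of the embryo. Trpm1 encodes a cation channel of melanocytes and of ON bipolar cells of the retina, and in melanocytes the transcription factor Mitf drives it. Socs2 encodes a suppressor of cytokine signalling that cytokine and growth hormone signals switch on and that dampens the growth hormone receptor. Sprr2a2 encodes a small proline-rich protein, a cross-linked part of the cornified envelope of epidermis that other epithelia also make.

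In GENCODE release M21 on GRCm38 the protein-coding genes lay on 6 chromosomes. Selenop (ENSMUSG00000064373) spans chr15:3268547-3280508 on the plus strand and Trh (ENSMUSG00000005892) spans chr6:92242061-92244650 on the minus strand. Crybb1 (ENSMUSG00000029343) spans chr5:112255815-112269585 on the plus strand and Trpm1 (ENSMUSG00000030523) spans chr7:64153835-64269775 on the plus strand. Socs2 (ENSMUSG00000020027) spans chr10:95385362-95417180 on the minus strand and Sprr2a2 (ENSMUSG00000068893) spans chr3:92215920-92256724 on the plus strand. The promoters are shown because the genes were all high at D3, which makes their upstream letters the first thing to compare. Of the 6 genes, 5 matched a RefSeq promoter on build GRCm38.p6, and the 250 bases before the annotated start are printed 5′ to 3′ on the gene's strand. The windows are chr15:3270727-3270976 (Selenop, the third of 3 annotated starts, plus strand), chr6:92244651-92244900 (Trh, minus strand), chr5:112255570-112255819 (Crybb1, plus strand), chr7:64153585-64153834 (Trpm1, the first of 2 starts, plus strand) and chr3:92250397-92250646 (Sprr2a2, plus strand). Capitals mark matches to the motifs searched.
Selenop promoter: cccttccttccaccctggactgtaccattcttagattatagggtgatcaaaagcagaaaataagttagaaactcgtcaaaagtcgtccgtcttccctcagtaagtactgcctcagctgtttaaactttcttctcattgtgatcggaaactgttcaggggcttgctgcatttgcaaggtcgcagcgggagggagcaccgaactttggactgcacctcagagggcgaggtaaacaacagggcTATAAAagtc
Trh promoter: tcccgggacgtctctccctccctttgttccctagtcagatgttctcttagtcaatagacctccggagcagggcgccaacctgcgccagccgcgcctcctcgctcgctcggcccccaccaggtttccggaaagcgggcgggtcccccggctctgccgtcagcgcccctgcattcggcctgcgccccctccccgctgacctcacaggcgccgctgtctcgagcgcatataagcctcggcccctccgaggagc
Crybb1 promoter: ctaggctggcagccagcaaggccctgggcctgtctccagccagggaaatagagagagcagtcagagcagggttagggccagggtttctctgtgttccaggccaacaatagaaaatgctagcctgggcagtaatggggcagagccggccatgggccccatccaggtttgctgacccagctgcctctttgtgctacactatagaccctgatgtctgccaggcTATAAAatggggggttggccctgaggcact
Trpm1 promoter: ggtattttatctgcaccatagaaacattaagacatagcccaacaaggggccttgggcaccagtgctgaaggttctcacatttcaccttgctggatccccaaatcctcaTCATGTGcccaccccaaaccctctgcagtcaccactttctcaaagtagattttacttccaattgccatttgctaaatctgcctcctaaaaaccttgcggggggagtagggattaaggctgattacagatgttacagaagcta
Sprr2a2 promoter: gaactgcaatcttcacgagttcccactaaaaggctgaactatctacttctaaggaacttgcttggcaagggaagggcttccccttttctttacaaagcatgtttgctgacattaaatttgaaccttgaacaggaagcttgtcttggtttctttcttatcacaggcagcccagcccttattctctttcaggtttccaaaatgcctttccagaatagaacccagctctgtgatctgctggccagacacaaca

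Motifs were searched on both strands in all annotated starts of these genes and in 32851 RefSeq promoters of the same length. TATAAA, the TATA box, was found in the Selenop window with its first base at -10 from the start and in the Crybb1 window at -30, and 12.4% of all promoters hold it. TCATGTG, the M-box that Mitf binds, was found in the Trpm1 window at -142, and 3.25% of all promoters hold it. No start of these 5 genes held TCAAGGTCA (Esrrb, 0.387% of promoters), TGACTCA (AP-1 site, 4.46%), TGACGTCA (CRE site, 1.55%), CCACCCAC (Glis, 3.53%), ATGCAAAT (octamer bound by Oct4, 1.6%) or TTCNNNGAA (STAT, 7.02%). A match is a run of letters and no shown binding site, and a missing match says only that these letters are not in this window. The Sprr2a2 window was identical over all 250 bases to that of Sprr2a1, a near-identical copy whose gene overlaps it, and shared a run of 222 bases with that of Sprr2a3.

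Replicate 1 was sequenced more deeply, with totals between 2176457 estimated counts (D0) and 4335931 (D7), than replicate 2, with totals between 1329377 (D5) and 1492105 (D0). Levels below are given as CPM, counts scaled by the effective library total, unless TPM, a level per transcript length, is named. At these depths 3 counts stood for 0.653 to 2.32 CPM, and values below that are within counting error of 0. Between same-day replicates the chi-square per gene was 7.16 to 20.8, far above counting noise, and each library was counted as its own sample. The replicate number also went with fragment length, which averaged 134.8 to 157.5 bases in the libraries of replicate 1 and 197.8 to 203.1 bases in those of replicate 2. The summed level of 10 fibroblast markers was 575 to 815 CPM at D7, against 10900 to 11700 CPM at D0. That of 10 pluripotency markers was 1300 to 1670 CPM at D7, against 7.83 to 14.2 CPM at D0. These are bulk samples, so a change in the number of cells that make a transcript and a change in its level per cell cannot be told apart.

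The secreted selenium carrier Selenop had the highest levels of the 6 genes. Its 2 libraries held 15.7 and 15.7 CPM at D0, 180 and 75.4 CPM at D1, 2050 and 1820 CPM at D3, 1200 and 1580 CPM at D5, and 1080 and 784 CPM at D7. The ranges of neighbouring days in that series did not overlap. Per transcript length Selenop averaged 1380 ± 146 TPM at D3 (SD, n = 2), which was rank 111 of 54752 genes on that day and rank 7610 at D0. Selenop was also the member with the clearest level before D3: D1 stood above D0 in both replicates, by 10.9-fold in replicate 1 and 4.61-fold in replicate 2.

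The hormone precursor Trh was nearly silent at the start. It held 0 and 0.748 CPM at D0, 6.69 and 0.711 CPM at D1, 223 and 83.5 CPM at D3, 216 and 256 CPM at D5, and 146 and 81.5 CPM at D7. The D0 values are 0 and 1 counts, and at D1 only replicate 1 was above the level of 3 counts. The D3 libraries overlapped in level with those of D5 and with those of D7, while D5 and D7 did not overlap. D3 replicate 1 lay within the D5 range, and both D7 libraries lay close to or within the D3 range.

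The lens crystallin Crybb1 held 0.489 and 0 CPM at D0, 1.83 and 1.42 CPM at D1, 52.4 and 89.4 CPM at D3, 28.3 and 101 CPM at D5, and 22 and 24.3 CPM at D7. Its D5 libraries stood furthest apart, with replicate 2 above both D3 libraries and replicate 1 below both. The D7 libraries were close to each other and below every D3 and D5 library. The envelope gene Sprr2a2 held 0.489 and 1.5 CPM at D0, 3.04 and 4.27 CPM at D1, 97.2 and 61.8 CPM at D3, 133 and 247 CPM at D5, and 71.8 and 62.4 CPM at D7. Its highest day was D5, and its D7 libraries lay within the D3 range.

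The channel gene Trpm1 held 0.489 and 0.748 CPM at D0, 3.65 and 7.11 CPM at D1, 62 and 83.5 CPM at D3, 26.3 and 54.1 CPM at D5, and 10.4 and 10.5 CPM at D7. It was the member whose level at D7 stood nearest to D1, and no 2 days overlapped. The cytokine-signalling suppressor Socs2 held 10.8 and 8.23 CPM at D0, 8.52 and 7.11 CPM at D1, 42.7 and 41 CPM at D3, 51.7 and 58.8 CPM at D5, and 33.3 and 32.9 CPM at D7. Like Selenop it had a clear level at D0. In CPM its D1 libraries overlapped with those of D0 (log2 change of D1 against D0 -0.27), while in TPM they did not, with 6.35 and 4.41 TPM at D1 against 9.15 and 17 TPM at D0 (-1.10 on the log2(TPM + 1) scale). From D3 on its replicates lay close to each other.

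**Figure D1:**
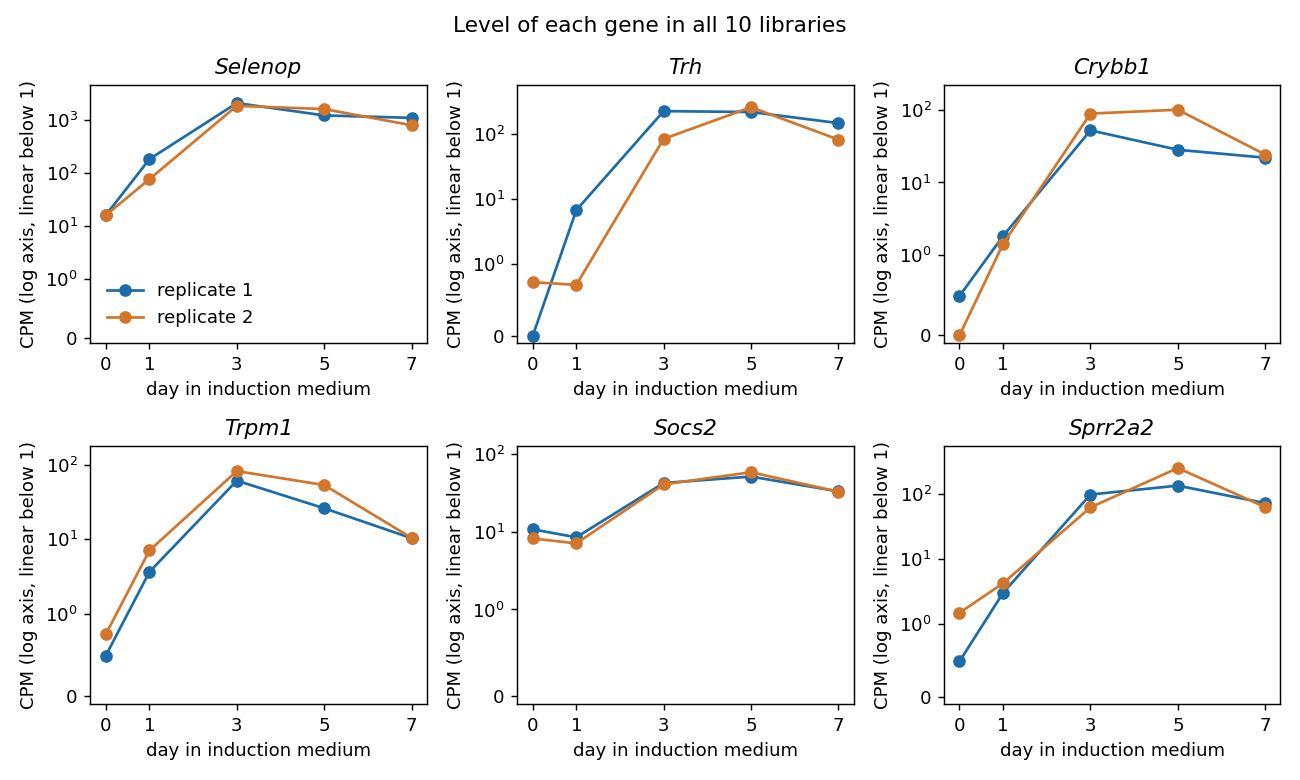
CPM of each gene (log axis, linear below 1) against day in induction medium, with 1 line for each replicate number and 1 point for each library. All 6 genes are higher at D3 than at D1 in both replicates. Selenop reaches 2050 CPM and Socs2 58.8 CPM, and every gene is lower at D7 than at D5 in both replicates.

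The step that chose the genes is given as a description. For D3 against D1 the log2 change was 5.34 for Crybb1, 5.11 for Trh, 4.50 for Sprr2a2, 3.91 for Selenop, 3.84 for Trpm1 and 2.39 for Socs2. Without D1 replicate 1 that of Trh was 7.71, and on the log2(TPM + 1) scale that of Trpm1 was 2.55. Within replicate 1 and replicate 2 the D3 level was 29.8-fold and 55-fold the D1 level for Trh, 20.1-fold and 40.2-fold for Crybb1, and 25.4-fold and 12.3-fold for Sprr2a2. The same ratios were 11.4-fold and 23.8-fold for Selenop, 14.1-fold and 10.6-fold for Trpm1, and 4.66-fold and 5.27-fold for Socs2. These within-replicate ratios, and those below, come from log2 CPM with a prior count of 2, which understates the change of genes near 0. By size the changes of the 6 genes ranked between 27 (Crybb1) and 227 (Socs2) among 12752 genes tested. In edgeR's quasi-likelihood test 7 genes, 0.0549% of those tested, passed a Benjamini-Hochberg adjusted p of 0.05 in this contrast, and 206 did so once the replicate number was a block. That number was 0 without D1 replicate 2 or without D3 replicate 1, 1 without D1 replicate 1, 4 without either D0 library or D3 replicate 2, and 45 and 44 without D5 replicate 1 and 2. Nothing about the 6 genes is read from that share, since this contrast chose them. Outside them Klf2, a Krüppel-like transcription factor of pluripotent cells, passed. Klf2 had a different course over the days: 11.3 and 20.2 CPM at D0, 0.913 and 0.711 CPM at D1, 22.2 and 13.4 CPM at D3, 108 and 83.5 CPM at D5, and 116 and 126 CPM at D7.

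**Figure D2:**
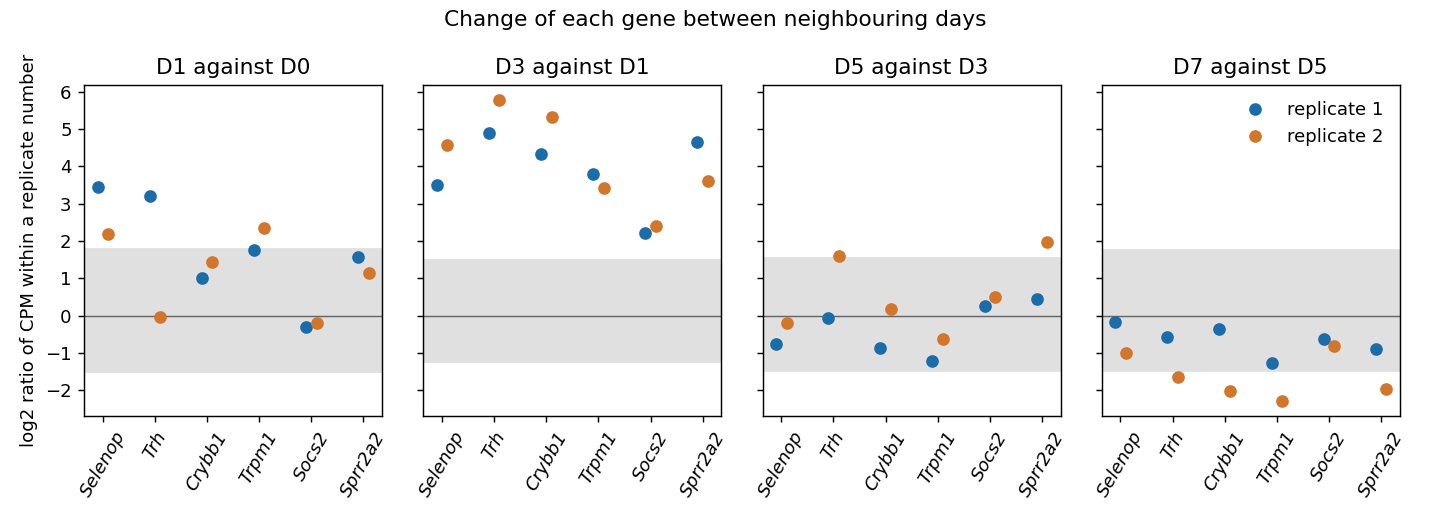
log2 ratio of CPM between neighbouring days within a replicate number, for each gene (horizontal axis) and replicate (colour), in 4 panels of neighbouring days. The grey band spans the lowest 5% point and the highest 95% point of all genes tested over both replicates (for example -1.23 to 1.48 for D3 against D1); Socs2 lies nearest to the band at that step, with 2.22 and 2.40, and all 12 points lie below 0 for D7 against D5.

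After D3 the courses of the genes separated. For D5 against D3, Sprr2a2 had a log2 change of 1.23, Trh 0.61 and Socs2 0.39, whereas Crybb1 had -0.16, Selenop -0.47 and Trpm1 -0.88. Selenop, Crybb1 and Trpm1 had their highest mean at D3, and Trh, Socs2 and Sprr2a2 had theirs at D5. The direction for Crybb1 was not the same in the 2 replicates, with a log2 ratio of -0.87 in replicate 1 and 0.17 in replicate 2, and that for Trh was -0.05 in replicate 1 and 1.61 in replicate 2. For D7 against D3, Trpm1 had the lowest value, with a log2 change of -2.78. Crybb1 followed with -1.61 and Selenop with -1.05, while Trh (-0.44), Socs2 (-0.34) and Sprr2a2 (-0.25) stood closer to their D3 levels. These contrasts share the D3 libraries with the choice of the genes and carry no test. Leaving out D3 replicate 1 turned Trh to 0.45 and Sprr2a2 to 0.12 for D7 against D3.

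The comparisons among D0, D5 and D7 use no D1 or D3 library, and these were tested. Selenop and Socs2, with 53 and 33 counts over both D0 libraries, passed as higher in D5 against D0, beside 8.47% of all genes tested. Selenop rose, with 1390 ± 265 CPM at D5 against 15.7 ± 0.043 CPM at D0 (SD, n = 2 each), a log2 change of 6.47 ± 0.50 (SE; adjusted p = 7.08e-05, edgeR). Socs2 rose, with 55.2 ± 5.0 CPM at D5 against 9.5 ± 1.79 CPM at D0, a log2 change of 2.51 ± 0.32 (adjusted p = 0.000673). The other members had 1 to 3 counts over both D0 libraries, so their change is given as the ratio of pooled counts with an exact 95% counting interval. The ratio was 762 (137 to 30100) for Trh, with 1225 counts at D5 against 1 at D0, and 180 (61.4 to 875) for Sprr2a2, with 868 counts at D5 against 3 at D0. It was 154 (27.3 to 6090) for Crybb1, with 247 counts at D5 against 1 at D0, and 55.7 (15.2 to 463) for Trpm1, with 179 counts at D5 against 2 at D0. In either direction 2079 genes (16.3%) passed, against 3342 with a block for the replicate number, 819 without D0 replicate 1 and 885 without D0 replicate 2. The Selenop and Socs2 calls held without any 1 library. The single D0 count of Trh came from replicate 2 and that of Crybb1 from replicate 1, so without that library the ratio has no D0 count to stand on. Trh, Crybb1, Trpm1 and Sprr2a2 could pass the filter on low counts only through their later days, so a higher level than at D0 was a condition of being tested, and their p against D0, at either D5 or D7, is not read as support.

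In D7 against D0 Selenop and Socs2 passed as higher, beside 9.15% of all genes tested. Selenop rose, with 931 ± 207 CPM at D7 against 15.7 ± 0.043 CPM at D0, a log2 change of 5.89 ± 0.48 (adjusted p = 8.01e-05, edgeR). Socs2 rose, with 33.1 ± 0.303 CPM at D7 against 9.5 ± 1.79 CPM at D0, a log2 change of 1.78 ± 0.32 (adjusted p = 0.00387). The pooled ratio of D7 to D0 was 438 (78.4 to 17300) for Trh, 78.3 (26.6 to 381) for Sprr2a2, 76.2 (13.5 to 3030) for Crybb1 and 17.7 (4.7 to 149) for Trpm1. Within each replicate number D7 stood above D0 for every member, least for Socs2 (2.94-fold and 3.72-fold) and then Trpm1 (8.6-fold and 7.22-fold). In either direction 2278 genes (17.9%) passed, or 3629 with the block, 924 and 1015 without D0 replicate 1 and 2, and 839 and 1463 without D7 replicate 1 and 2. On the TPM scale with limma Socs2 did not pass (log2 change 0.91, adjusted p = 0.166). TPM depends on the transcript lengths that RSEM assigned, which for Trpm1 were 2466.7 bases in D3 replicate 2 and 529 bases in D0 replicate 2, and for Socs2 2371.7 bases in D1 replicate 2 and 874 bases in D0 replicate 2.

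**Figure D3:**
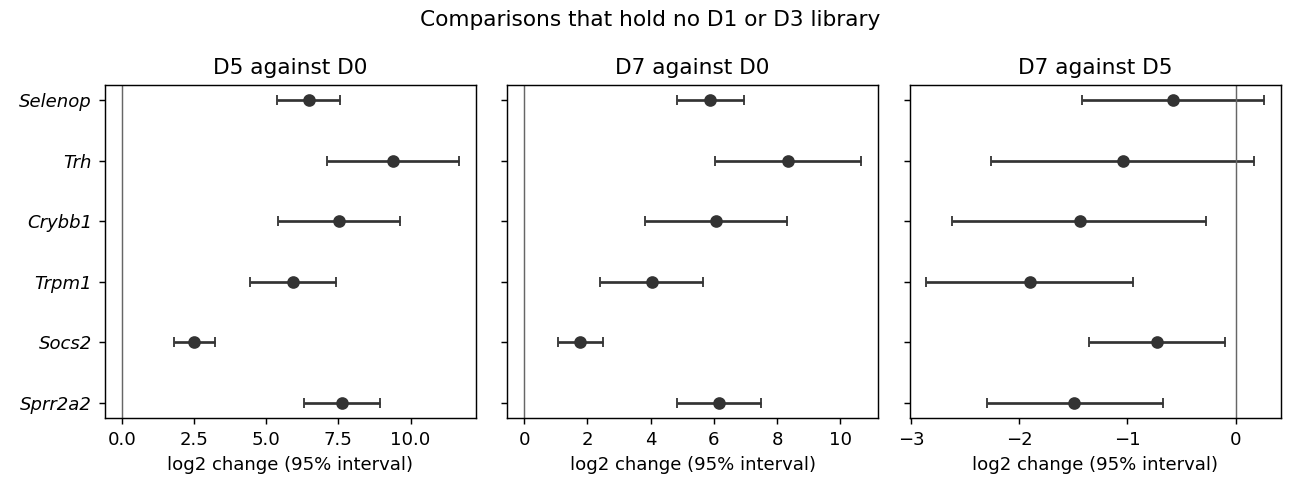
log2 change of each gene (rows) from the fit over all 10 libraries, with its approximate 95% interval as a bar, for the 3 comparisons without D1 or D3 libraries; the horizontal axes differ in range. The intervals for D5 against D0 and D7 against D0 lie above 0 for all 6 genes, with Socs2 lowest (2.51 and 1.78). Those of Trh, Crybb1, Trpm1 and Sprr2a2 are not read as support, since these genes could pass the filter on low counts only through their later days. For D7 against D5 all 6 points lie below 0.

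D7 against D5, all 6 genes had lower means at D7, but none passed the test after adjustment. Trpm1 averaged 10.5 ± 0.051 CPM at D7 against 40.2 ± 19.7 CPM at D5, a log2 change of -1.90 (95% interval -2.86 to -0.95, adjusted p = 0.565, edgeR). Sprr2a2 averaged 67.1 ± 6.62 CPM at D7 against 190 ± 80.6 CPM at D5, a log2 change of -1.49 (-2.30 to -0.67, adjusted p = 0.565). Crybb1 had -1.44 (-2.62 to -0.27), Trh -1.04 (-2.26 to 0.17), Socs2 -0.73 (-1.36 to -0.10) and Selenop -0.58 (-1.42 to 0.26), with adjusted p between 0.764 and 0.832. The D7 level was below the D5 level in both replicates for each of the 6 genes, from 0.895-fold for Selenop in replicate 1 to 0.206-fold for Trpm1 in replicate 2. Over all genes tested the median log2 ratio was -0.02 in replicate 1 and 0 in replicate 2. The 6 genes share the libraries and their levels correlate, so their ratios are not separate observations. No gene of the 12752 (0%) passed in this comparison, while 810 had an unadjusted p under 0.05, 20 passed with the replicate number as a block, 25 with DESeq2 and 1 with limma on TPM. D5 replicate 1 was the lower D5 library for Trpm1, Sprr2a2 and Crybb1, and without it their log2 changes were -2.34, -1.85 and -2.10. Over all omissions of 1 library they ran from -2.34 to -1.33, from -1.85 to -0.98 and from -2.10 to -0.30. With no filter on low counts Trpm1 (-1.84, adjusted p = 0.0153) and Sprr2a2 (-1.42, adjusted p = 0.0268) passed.

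Over the 10 libraries the log2 CPM values of member pairs correlated with r between 0.836 (Trpm1 with Socs2) and 0.975 (Trh with Sprr2a2). These values share the libraries and the large difference between the early and late days, and the genes were chosen for that difference, so they describe the choice and are no evidence of a link. The tested genes most like each member, other members included, were read by the same measure. For Selenop they were Rec8, a meiotic cohesin subunit, Emb, a membrane glycoprotein, and Dcpp3, each at r = 0.972. For Trh they were Emb (0.986), Cntnap2 (0.975) and the member Sprr2a2 (0.975), and for Crybb1 they were Ly6g6e (0.986), the aquaporin gene Aqp11 (0.978) and the transporter gene Abcb6 (0.977). For Trpm1 they were Tst, a thiosulfate sulfurtransferase (0.990), Glul, which encodes glutamine synthetase (0.973), and Nrgn, which encodes neurogranin (0.966). Tst averaged 2.72 CPM at D0, 15.7 at D1, 81.2 at D3, 53.9 at D5 and 20.3 at D7, the same order of days as Trpm1 from D3 on. For Socs2 they were Vrtn (0.976), Sez6 (0.969) and Ly6g6e (0.961), and for Sprr2a2 the tight junction gene Cldn5 (0.985), the splicing factor gene Xab2 (0.979) and F11r, which encodes a junctional adhesion molecule (0.979).

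Among the other selenoprotein genes the share that passed was near that of all genes. Of 23 such genes 19 were tested, and 2 rose and 1 fell in D7 against D0, where 9.15% of all genes rose and 8.71% fell. With a block for the replicate number 3 rose and 4 fell, beside 1884 and 1745 of all 12752 genes. Selenoh, a nuclear selenoprotein, rose, with 87.3 ± 2.89 CPM at D7 against 29.4 ± 7.05 CPM at D0 (log2 change 1.58, adjusted p = 0.00586, edgeR). Gpx2, a glutathione peroxidase of gut epithelium, had no counts at D0 and was at least 15.5-fold higher at D7, against a floor of 3 counts over the D0 libraries. Gpx2 is counted among those that rose. It could pass the filter on low counts only through its later days, so its p against D0, at either D5 or D7, is not read as support. Selenon, a selenoprotein of the endoplasmic reticulum, fell, with 41.1 ± 6.06 CPM at D7 against 128 ± 5.62 CPM at D0 (log2 change -1.65, adjusted p = 0.00546). For D5 against D0, 3 rose and 1 fell, with Gpx1 added to those that rose (log2 change 1.35, adjusted p = 0.0487). Their median log2 change was -0.41 for D7 against D0, where that of all genes tested was 0.06. Per length Selenop had 1380 TPM at D3, beside 1710 TPM for Gpx4, a phospholipid peroxidase, and 13.9 TPM at D0, beside 1140 TPM for Gpx4. Among 9 genes for selenoprotein synthesis and uptake, 0 passed in D7 against D0 with edgeR, while 1 had an unadjusted p under 0.05 and 1 passed with the block, 1 with DESeq2 and 0 with limma. Lrp2, an endocytic receptor for Selenop, was higher at D7 than at D3 (log2 change 3.23, adjusted p = 0.0364, in a comparison where 5.37% of all genes passed), although its D7 libraries differed widely (69.7 ± 60.5 CPM) and no gene of the list passed there with limma on TPM.

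The receptors of the hormone that Trh encodes were at or near 0, while some of the enzymes that process such hormones were present. Of 11 genes for peptide hormone processing and reception 4 were tested. The processing genes Pcsk1 and Pcsk2 had too few counts to be tested. Both averaged 0 CPM at D0 and D1, and they averaged 0.293 and 0.439 CPM at D3. At D7 Pcsk1 averaged 5.23 CPM and Pcsk2 0 CPM. Trhr had no counts in any library, and Trhr2 had a mean of 0 CPM on each day from D0 to D5. Chga, which encodes the granule protein chromogranin A, had no counts at D0 and was at least 4.79-fold higher at D7 against the floor of 3 counts. Chga could pass the filter on low counts only through its later days, so its p against D0 is not read as support. Cpe, a carboxypeptidase that trims prohormones, fell, with 69.8 ± 23 CPM at D7 against 274 ± 42.7 CPM at D0 (log2 change -1.99, adjusted p = 0.0119, edgeR). Pam, the enzyme that amidates the hormone, had a log2 change of -0.22 in D7 against D0 (adjusted p = 0.642).

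Most other crystallin genes had too few counts to be tested. Of 18 other crystallin genes 4 were tested, and 0 rose and 1 fell in D7 against D0, where 9.15% of all genes rose and 8.71% fell. With a block for the replicate number 0 rose and 2 fell, beside 1884 and 1745 of all 12752 genes. The gene that fell without the block was Crybg1, with 1.96 ± 0.0095 CPM at D7 against 24.2 ± 0.363 CPM at D0 (log2 change -3.59, adjusted p = 0.00566, edgeR). Cryba2, a beta crystallin gene, also had its highest means at D3 and D5, with 0 CPM at D0, 0.711 ± 1.01 at D1, 6.15 ± 2.9 at D3, 8.99 ± 11.3 at D5 and 1.31 ± 0.0064 at D7. It was at least 5.39-fold higher at D5 than at D0 against the floor of 3 counts but did not pass (adjusted p = 0.0701, edgeR). In that comparison 0 crystallin genes rose and 1 fell, beside 1080 and 999 of all 12752 genes. With the block 1 rose and 2 fell, beside 1680 and 1662 of all genes. Cryab, a small heat shock protein of many tissues, averaged 178 ± 66.2 CPM at D0, 109 ± 54.5 at D1, 74.5 ± 53.7 at D3, 68.7 ± 70.2 at D5 and 35.5 ± 31.5 at D7, and did not pass in D7 against D0 (adjusted p = 0.0899). Per length Crybb1 had 135 TPM at D3, beside 150 TPM for Cryab, and 0.485 TPM at D0, beside 392 TPM for Cryab. Among 12 lens regulators and markers 2 were tested, and the lens membrane channel Mip had no counts in any library. Maf, a transcription factor of lens fibres and of other cells, averaged 24.3 ± 1.58 CPM at D0, 29.7 ± 7.86 at D1, 67.8 ± 16.9 at D3, 31 ± 12 at D5 and 14.4 ± 3.77 at D7, and was lower at D7 than at D3 (log2 change -2.26, adjusted p = 0.0153), a call that limma on TPM did not make. The summed level of the 12 lens genes was 28.4 to 35.2 CPM at D0, 65.5 to 94.6 CPM at D3 and 24.8 to 35.5 CPM at D7. Maf made up most of it at D0 and D3, and each other lens gene averaged at most 7.42 CPM on any day. The summed level of 12 macrophage markers, which microglia share, was 22.5 to 42.6 CPM at D0, 12.7 to 28.1 CPM at D3 and 9.86 to 15 CPM at D7, and its part in the Crybb1 level was not tested.

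Among the other channels of the TRPM family 2 of 7 were tested, Trpm7 and Trpm4, and 0 passed in D7 against D0 with edgeR. The number was also 0 with DESeq2, with limma, with the block and at an unadjusted p under 0.05. Of all genes tested 17.9% passed with edgeR, so 0 of 2 says little about the family. Per length Trpm1 had 7.48 TPM at D7, beside 37.5 TPM for the widely expressed Trpm7, and 72.1 TPM at D3, beside 23.3 TPM for Trpm7. Of 10 melanocyte markers only Mitf was tested (log2 change 1.35 in D7 against D0, adjusted p = 0.391). The pigment genes Tyrp1 and Oca2 had no counts in any library. The summed level of the melanocyte markers was 0.748 to 8.32 CPM at D0, 10.4 to 14.6 CPM at D3, 18.4 to 19.3 CPM at D5 and 12.4 to 13.1 CPM at D7, and its part in the Trpm1 level was not tested.

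Some genes of the SOCS family and its pathway passed. Of the 7 other members, all tested, 1 rose and 1 fell in D7 against D0, where 9.15% of all genes rose and 8.71% fell. With a block for the replicate number 2 rose and 1 fell, beside 1884 and 1745 of all 12752 genes. Whether the family differs from all genes was not tested. Socs3, the suppressor that acts on receptors of the interleukin-6 family, averaged 23.7 ± 4.52 CPM at D0, 144 ± 23.5 at D1, 270 ± 89.8 at D3, 103 ± 34 at D5 and 87.7 ± 29.3 at D7. It had already risen at D1 (log2 change of D1 against D0 2.61, adjusted p = 0.0048, edgeR, where 4.52% of all genes passed), and it was lower at D7 than at D3 (-1.63, adjusted p = 0.0346), a call that limma on TPM did not make. Whether it differs in these changes from Socs2 was not tested. Socs5 fell, with 22.8 ± 4.9 CPM at D7 against 62.1 ± 0.011 CPM at D0 (log2 change -1.46, adjusted p = 0.00609). Cish, a close relative of Socs2, had a log2 change of -1.56 in D7 against D0 (adjusted p = 0.152). Of 14 tested receptors, kinases and STATs of the pathway 2 rose and 3 fell in D7 against D0, beside 9.15% and 8.71% of all genes. With the block 3 rose and 4 fell, again beside 1884 and 1745 of all 12752 genes. Lifr, the receptor of leukemia inhibitory factor, rose, with 50.2 ± 6.86 CPM at D7 against 14.5 ± 1.77 CPM at D0 (log2 change 1.81, adjusted p = 0.00743). Ghr, the growth hormone receptor that Socs2 dampens, fell, with 16.4 ± 0.079 CPM at D7 against 64.1 ± 13.1 CPM at D0 (log2 change -1.96, adjusted p = 0.00273). Jak1 (-1.60, adjusted p = 0.00284) and Stat6 (-1.78, adjusted p = 0.00267) fell as well. Stat5b and Stat5a, which act below the growth hormone receptor, had log2 changes of -0.73 and 0.32 in D7 against D0 and did not pass (adjusted p = 0.174 and 0.714). The prolactin receptor gene Prlr averaged 0.619 ± 0.183 CPM at D0, 4.11 ± 0.221 at D1, 21.3 ± 9.88 at D3, 7.08 ± 1.26 at D5 and 3.83 ± 3.88 at D7. Its log2 change in D5 against D0 was 3.48. Prlr was near 0 at D0 and could pass the filter on low counts only through its later days, so its p against D0 is not read as support.

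Most other genes of the SPRR family were at or near 0. Of 14 other SPRR genes 8 had no counts in any library, and Sprr2a3 was the only one tested. Sprr2a3 held 0 and 0 CPM at D0, 0 and 0.711 CPM at D1, 8.49 and 6.71 CPM at D3, 10.4 and 20.9 CPM at D5, and 6.53 and 3.29 CPM at D7. It was at least 14.5-fold higher at D5 and at least 6.44-fold higher at D7 than at D0, against a floor of 3 counts over the D0 libraries. Sprr2a3 could pass the filter on low counts only through its later days, so its p against D0 is not read as support. The Sprr2a copies cannot be fully separated: of the 75-base words of the Sprr2a2 transcripts, 100% (Sprr2a2-202, 722 bases) and 94.6% (Sprr2a2-201) occur in the other Sprr2a transcripts, so how RSEM split their reads is uncertain. The 3 copies summed held 0.489 and 1.5 CPM at D0, 3.04 and 4.98 CPM at D1, 108 and 68.6 CPM at D3, 147 and 271 CPM at D5, and 78.3 and 67.7 CPM at D7. Of 13 keratinocyte and envelope markers 2 were tested, Lor and Sfn, and 0 passed in D7 against D0 with edgeR or limma. In the same comparison 1 had an unadjusted p under 0.05, 1 passed with the block and 1 with DESeq2 (Sfn had an adjusted p of 0.059 in edgeR). Of all 12752 genes 17.9% passed with edgeR and 3629 genes with the block, so counts out of 2 say little. The summed level of the 13 markers was 49.9 to 58.4 CPM at D0, 40.4 to 45.5 CPM at D3 and 17.7 to 36.1 CPM at D7. Sfn made up most of that sum, with 47.8 ± 5.38 CPM at D0, 28.9 ± 2.97 at D3 and 14.9 ± 11.8 at D7, while Flg and Tgm1 averaged 3.49 and 3.5 CPM at D7, against 0.245 and 0.374 CPM at D0. The epidermal keratin gene Krt14 averaged 0 CPM at D0, D5 and D7.

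**Figure D4:**
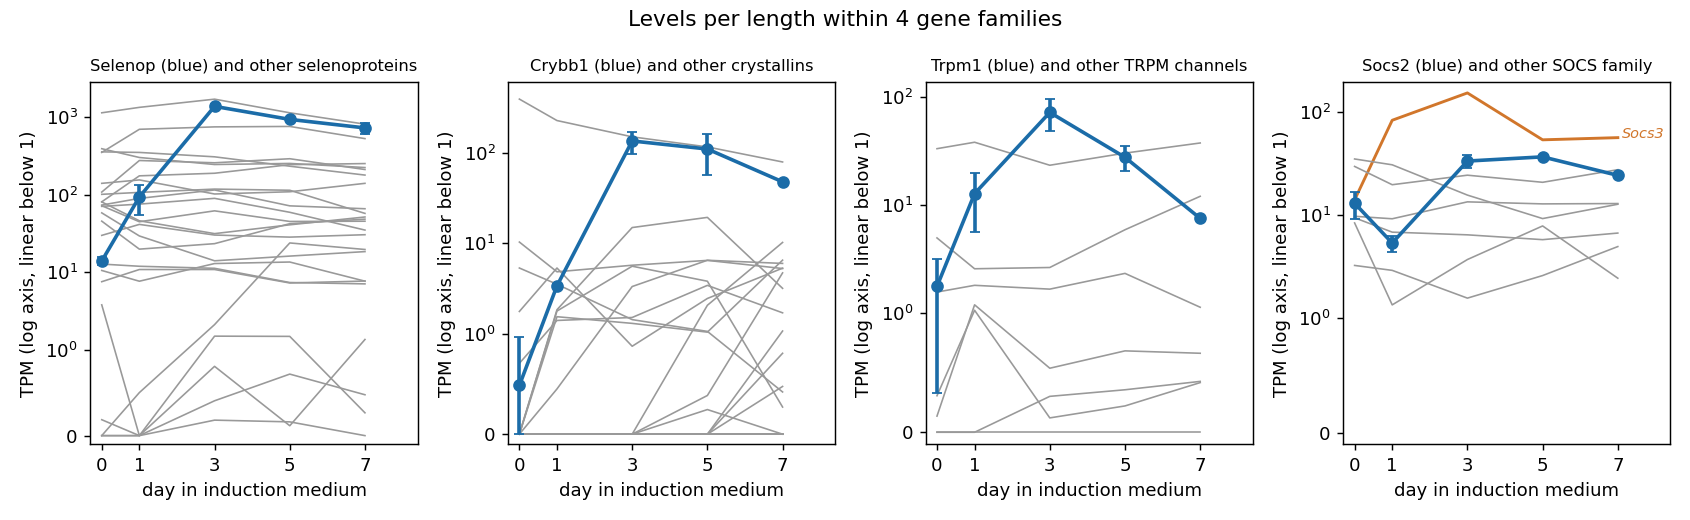
Mean TPM, a level per transcript length (log axis, linear below 1), against day for Selenop, Crybb1, Trpm1 and Socs2 (blue, bars from the lower to the higher of the 2 libraries) and for the other genes of each family (grey, means only). Selenop reaches 1380 TPM at D3, close to the highest selenoprotein gene, Gpx4. Socs3 is drawn in orange, and its mean stands above that of Socs2 on each day, by least at D0 (14.1 against 13.1 TPM).

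Sprr2a3 lies 28693 bases beyond Sprr2a2, and its p against D0 is not read as support. Apart from Sprr2a3, no gene next to a member passed as higher in D7 against D0. Of all genes tested 9.15% did so, and with so few neighbours nothing is read from that absence. Ghr, the next protein-coding gene beyond Selenop at 37252 bases, fell as given above. Mtmr10, 17878 bases beyond Trpm1, fell, with 22.8 and 21.7 CPM at D7 against 84.6 and 96.5 CPM at D0 (log2 change -2.02, adjusted p = 0.00387, edgeR). Cryba4, a crystallin gene 3297 bases from Crybb1 on the opposite strand, stayed at or below 3.87 CPM in all libraries and was not tested. Tpst2 (beside Crybb1), Klf13 (beside Trpm1), Rbsn and Prickle2 (beside Trh) and Cradd and Mrpl42 (beside Socs2) did not pass in D7 against D0, with log2 changes from -0.87 (Klf13) to 0.81 (Cradd). Ccdc152, which overlaps the 3′ end of Selenop on the opposite strand, had at most 2.05 CPM. The sources used here do not say whether the authors counted by strand.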

How the data were processed

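Messenger RNA was measured in 10 libraries of 5 days, 2 a day. The submitters' processing notes name bcl2fastq, Bowtie2, RSEM and the build mm10, while the sources used here give no versions, no annotation release and no use of strand. Per the file headers, the authors deposited RSEM tables with expected counts, TPM and FPKM; the deposited FPKM values were not used, and the deposited TPM values gave levels per length and an alternative test. The labels name 2 library kits without saying which library had which. Of 54752 gene identifiers 54723 matched GENCODE M21.

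Expected counts were rounded and tested with edgeR 4.0.16 (R 4.3.3, quasi-likelihood F test, TMM scaling, minimum count 10, 12752 genes, Benjamini-Hochberg over all of them, threshold 0.05). A single model with a term for each day was fitted to all 10 libraries, so the spread is shared over days. The SE is the absolute log2 change over the square root of F, and 95% intervals use the model's degrees of freedom. Alternatives used limma 3.58.1 (log2(TPM + 1)) and DESeq2 1.42.0. The steps were checked on simulated counts. Counting intervals and floors of 3 counts cover counting error only. The series describes 2 independent experiments, but the labels do not say how the cells of each were grown. The p-values reflect only how far these libraries scatter, and that scatter may be partly technical. Same-numbered libraries deviated together (r 0.273 to 0.436 over all 10 pairs of days). The fit as reported leaves this pairing out, and a block for the replicate number was used as an alternative.

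Members and gene lists were chosen with earlier results of these data known. Named genes were the 6 members, up to 4 called genes of each list with the largest change, the 2 highest by TPM where no gene was called, the 3 genes most like each member, the nearest protein-coding genes and the Sprr2a copies. Lrp2, Pam, Pcsk1, Pcsk2, Gpx4, Cryba2, Flg, Tgm1, Cryab, Cish, Stat5a, Stat5b, Mip, Tyrp1, Oca2, Krt14, Trhr, Trhr2 and Klf2 were named beyond that rule, for their role or after their values were seen. The neuron list (2 of 5 tested genes higher in D7 against D0) was read for context only.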

Additional observations from a re-analysis of the deposited data

How the results depend on the processing

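In D5 against D0 and D7 against D0 Selenop and Socs2 kept their direction under every alternative. So did Trh, Crybb1, Trpm1 and Sprr2a2, but a higher level than at D0 was a condition of their being tested. Nothing is read from their kept direction. For Socs2 in D7 against D0 the adjusted p rose above the threshold with limma on TPM (0.91, adjusted p = 0.166), and the cause was not tested. Trpm1 also did not pass there with limma on TPM (1.85, adjusted p = 0.126). As said above, the p of Trh, Crybb1, Trpm1 and Sprr2a2 against D0 is not read as support under any setting. With 1 library left out the log2 changes of D5 against D0 ran from 6.25 to 6.68 (Selenop), 8.24 to 12.24 (Trh), 6.36 to 10.28 (Crybb1), 5.36 to 6.41 (Trpm1), 2.38 to 2.78 (Socs2) and 6.97 to 8.48 (Sprr2a2). Those of D7 against D0 ran from 5.64 to 6.14, 7.21 to 11.20, 5.46 to 8.85, 3.77 to 4.33, 1.65 to 2.05 and 5.49 to 7.0 in the same genes. Those of D3 against D1, the step that chose the genes, ran from 3.45 to 4.73, 4.25 to 7.71, 4.91 to 5.71, 3.39 to 4.31, 2.31 to 2.60 and 4.16 to 4.77, and limma on TPM gave 2.55 for Trpm1. For D7 against D5 they ran from -0.83 to -0.36 (Selenop), -1.53 to -0.69 (Trh), -2.10 to -0.30 (Crybb1), -2.34 to -1.33 (Trpm1), -0.81 to -0.65 (Socs2) and -1.85 to -0.98 (Sprr2a2). Calls of D7 against D5 appeared without the filter on low counts (Trpm1 -1.84, Sprr2a2 -1.42). With 1 library left out, D7 against D3 ran from -0.97 to 0.45 for Trh and from -0.54 to 0.12 for Sprr2a2, and D5 against D3 from -1.31 to 0.50 for Crybb1.

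Counts of genes called moved more. Without the filter they were 272 (D3 against D1), 176 (D7 against D5), 1064 (D1 against D0, 577 in the fit as reported), 452 (D5 against D3, 9 as reported) and 1664 (D7 against D3, 685 as reported). With the replicate block they were 206, 20, 1350, 421 and 2351 in the same comparisons, 3342 for D5 against D0 and 3629 for D7 against D0. The block changed no call of Selenop or Socs2 against D0, and with it no member passed in D7 against D5. DESeq2 gave 126 (D3 against D1), 25 (D7 against D5) and 151 (D5 against D3), and limma on TPM gave 1 (D7 against D5), 352 (D1 against D0) and 235 (D7 against D3). D3 against D1 gave 15 with upper-quartile scaling, 11 with a minimum count of 30 and 12 when only the days compared were fitted, and D7 against D3 gave 1309 in that last setting. With 1 library left out the counts ran from 819 to 2183 (D5 against D0), 839 to 2988 (D7 against D0), 0 to 227 (D7 against D5), 121 to 911 (D1 against D0), 0 to 45 (D3 against D1), 0 to 288 (D5 against D3) and 5 to 1532 (D7 against D3). Where a day is left with 1 library, that library is assumed to vary like the others. Summing the Sprr2a copies, an alternative chosen after seeing the data, left the direction of Sprr2a2 the same in the tested comparisons, and it did not pass in D7 against D5. At D0 the depth limits Trh, Crybb1, Trpm1 and Sprr2a2 to 1 to 3 counts, so the size of their change is poorly known, and the intervals given cover counting error only.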
